A study of Mus musculus and Bos taurus with 26 samples.

Results

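Gene expression in early and late 2-cell mouse embryos was compared after mutant Hdac1 mRNA had been injected into the zygote. The genes followed were those with at least 1 FPKM (fragments per kilobase of transcript, scaled to the fragments mapped) in at least 2 of the 4 libraries concerned, and 13974 of the 27988 genes in the mouse table met this rule. Of these, 8919 reached 1 FPKM in all 4 libraries, 2588 reached it in both late libraries alone and 507 in both early libraries alone. Genes of the 2588 had to be higher late than early to enter, so counts over all genes lean upward for that reason. The 36 h embryos are called late and the 24 h embryos early, both timed from fertilization. Each group had 2 libraries of polyA RNA from whole embryos.

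The 4 libraries were compared with 4 others of the same ages from zygotes given wild-type (WT) Hdac1 mRNA. A further late group had mutant Hdac1 mRNA at the zygote stage and water at the early 2-cell stage. Late embryos injected with mutant or WT Hdac2 mRNA, late embryos treated from the zygote with 50 nM FK228, a drug that blocks class I histone deacetylases, or cultured with DMSO, and late embryos injected with water as zygotes served for comparison. Late embryos given mutant Hdac1 mRNA as zygotes and Kdm5b mRNA at the early 2-cell stage entered the common fit and no comparison. The labels name no deletion of the embryos' own Hdac1 or Hdac2, so the mutant mRNA came on top of their own. The mutation is not given in the labels. The labels do not say that the libraries of a group came from separate collections, so p-values reflect the spread of these libraries alone, and that spread may be technical.

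HDAC1 and HDAC2 remove acetyl groups from histone tails within corepressor complexes such as Sin3, NuRD and CoREST, and a nucleosome without acetyl groups is in general less open to transcription. In the mouse, the embryo's own genome is switched on mainly during the 2-cell stage. A first group of short-lived transcripts, among them Zscan4 and other genes linked to the MERVL retroelement, appears early and is then shut down, while genes for ribosomes, RNA processing and translation rise strongly late. Maternal mRNA stored in the egg is degraded over the same hours.

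Hdac1 mRNA was present in large amounts in every injected library. In the mutant arm it was 4007 and 2952 FPKM early and 4952 and 4612 FPKM late, and in the WT arm 7253 and 4519 FPKM early and 2707 and 2960 FPKM late. Water-injected late embryos had 92.2 and 89.3 FPKM. The FPKM values do not separate injected from embryonic Hdac1 mRNA, and they do not show the mutation. Embryos given a second injection of water carried less of it late, with 917 and 805 FPKM.

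All 4 libraries of the mutant arm carried the 2-cell markers and the oocyte markers checked. Between 10704 and 14341 genes reached 1 FPKM in these libraries. The late mutant pair agreed least of the 11 mouse groups, with a correlation of 0.933 on the log2 scale across genes. The early mutant pair had 0.979. Log2 differences between replicates had a standard deviation of 0.645 in the late mutant pair and 0.626 in the late WT pair. The early pairs had 0.424 (mutant) and 0.344 (WT). All groups were fitted with the same estimate of spread per gene, so errors of the late groups may be too small. Absolute sequencing depth is unknown. Markers of cumulus cells, blood and sperm are given with the results they touch.

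More genes changed with age in the mutant arm than in the WT arm. With the mutant, 6251 of the 13974 genes (44.7%) were higher late than early, against 40.6% of the 17336 genes tested in the mouse, and 4367 (31.3%) were lower, against 25.8%. With WT mRNA, 4438 of the same genes rose (31.8%, against 28.8% of all tested) and 4689 fell (33.6%, against 28.1%). A call meant an adjusted p under 0.05 in limma, fitted to log2(FPKM + 1) of all 22 mouse libraries. The median change of the 13974 genes was 0.36 on the log2 scale in the mutant arm and -0.05 in the WT arm. Quantile normalization moved the median mutant change over all tested genes from 0.37 to -0.02 and the calls among the 13974 to 4984 higher and 5205 lower, so the balance of rises and falls rested on the scaling.

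At 24 h few genes were called between the arms, and at 36 h many were. At the earlier age 89 of the 13974 genes differed between mutant and WT embryos early (0.637%, against 0.56% of all tested genes), and 7987 differed late (57.2%, against 52.1%). The difference of the stage changes was tested directly as mutant change minus WT change. It was positive for 3437 genes (24.6%, against 21.2% of all tested) and negative for 2439 (17.5%, against 15.2%). Genes were sorted into classes by the stage change in each arm and this difference.

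A change was kept when it was called in the same direction in both arms, and this held for 3373 rises (24.1% of genes followed) and 3358 falls (24.0%). Where the difference was called as well, a kept change was damped if smaller with the mutant and amplified if larger. Of the kept rises 1065 were damped, 466 were amplified and 1842 had no called difference. A change failed when it was called only in the WT arm and the difference was called too, as for 533 rises (3.81%) and 435 falls (3.11%). It was gained when it was called only in the mutant arm and the difference was called, as for 1891 rises (13.5%) and 363 falls (2.60%). Genes that rose with the mutant and fell with WT mRNA, called in both arms, numbered 379 (turned up, 2.71%), and 246 did the reverse (turned down, 1.76%). The other genes had no call in either arm (1585) or a call in 1 arm with no call for the difference. Over all 17336 genes tested the counts were 3526 kept rises, 3419 kept falls, 681 failed rises, 468 failed falls, 2085 gained rises, 369 gained falls, 382 turned up and 250 turned down. The balance of gained and failed rises leans on the choice of genes, since 1262 of the 1891 gained rises were under 1 FPKM early with the mutant and 148 failed rises among the genes tested did not reach 1 FPKM in 2 mutant libraries. Quantile normalization gave 1258 gained and 605 failed rises, and these were only in part the same genes. It left 1097 of the 1891 gained rises, 245 of the 533 failed rises and 193 of the 435 failed falls in their class. The same held for 245 of the 363 gained falls, 240 of the 379 turned up and 135 of the 246 turned down genes. In whole-embryo RNA, fewer cells of a type and less RNA per cell cannot be told apart, nor can synthesis and decay.

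**Figure D1:**
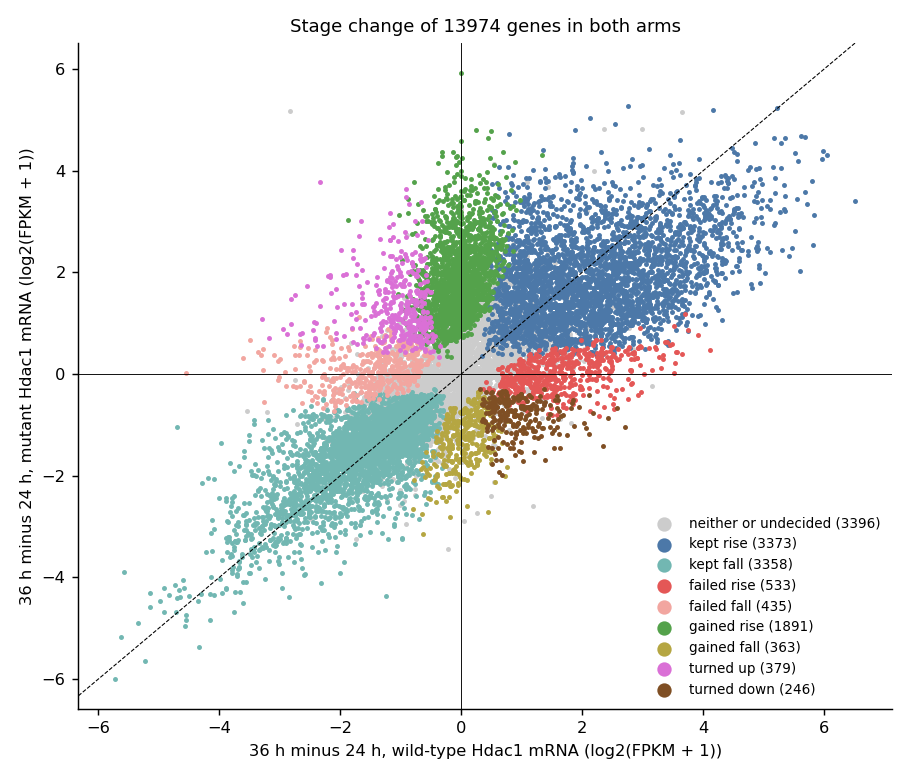
Each point is 1 of the 13974 genes, with its late minus early change on the log2(FPKM + 1) scale in WT embryos (x axis) and mutant embryos (y axis), coloured by class; the dashed line marks equal change. The 1891 gained rises form a column above 0 on the x axis, and the kept rises spread along the dashed line, with a median of 1.80 in the mutant arm and 2.08 in the WT arm.

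Class medians in each library show where the arms parted. For gained rises the median was 0.487 and 0.563 FPKM early and 5.40 and 5.08 FPKM late with the mutant, and 0.283 and 0.376 FPKM late with WT mRNA. Failed rises had medians of 6.77 and 6.81 FPKM early and 6.23 and 7.65 FPKM late with the mutant, and 23.0 and 22.6 FPKM late with WT mRNA. In both classes the medians of the arms lay closer together early than late, which follows in part from how the classes were drawn. The late mutant libraries were not equal here: the second was above the first for 73.4% of failed rises and 72.4% of turned down genes, against 53.1% of all 13974 genes and 43.1% of gained rises.

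**Figure D2:**
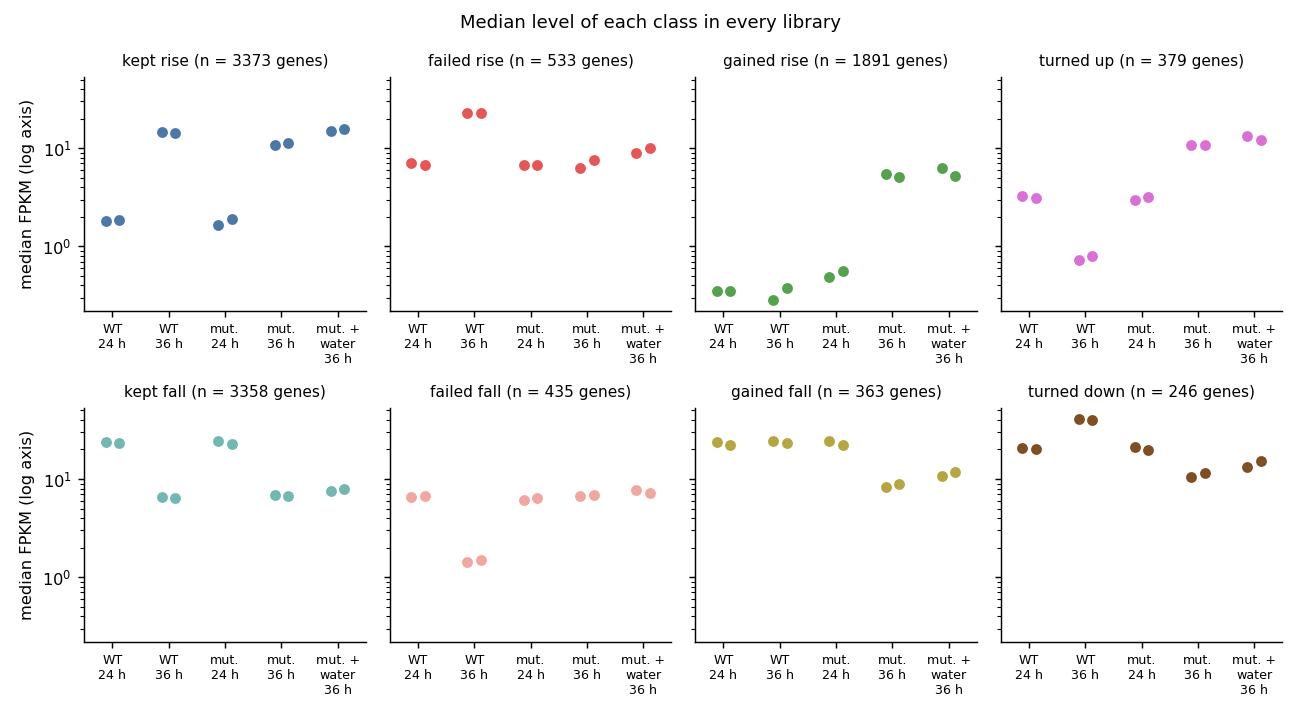
Median FPKM (log axis) of each class of genes in each library, 2 points per group, for WT and mutant embryos at 24 h and 36 h and for mutant embryos given water as a second injection. The median of failed rises stays near 7 FPKM in the mutant arm at both ages, and that of gained rises exceeds 5 in mutant embryos at 36 h alone, injected once or again with water.

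The loss of maternal mRNA was largely kept. Of 57 maternal oocyte transcripts among the 13974 genes, 53 fell with the mutant and 49 with WT mRNA, with median changes of -2.34 and -2.31, and 48 were kept falls. Rfpl4, an oocyte RING-finger protein gene (GRCm38 chr7:5109787-5116950, 3 exons), fell from 2426 and 2150 FPKM to 30.0 and 40.5 FPKM (log2 change -5.99 ± 0.27 SE, adjusted p = 1.4e-10). In WT embryos it went from 2280 and 2199 FPKM to 44.4 and 38.8 FPKM, and the difference between arms was -0.27 ± 0.38 (adjusted p = 0.63). The early and late values of both arms were far apart and the late values of the arms overlapped.

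Bcl2l10, a Bcl2-family gene abundant in eggs, fell by 5.17 and H1f8, the oocyte linker histone, by 4.85. The difference between the arms missed the threshold for both, at 0.46 ± 0.31 and -0.29 ± 0.28. Btg4 links maternal mRNA to the CCR4-NOT deadenylase, and it fell from 2273 and 2355 FPKM to 244 and 273 FPKM with the mutant. Tet3, a maternal dioxygenase that oxidizes methylcytosine, fell by 3.25. The difference was called for 15 maternal genes, 5 positive and 10 negative (9 and 7 under quantile normalization), among them Zar1l, an oocyte gene that was 12.4 and 8.65 FPKM early, 1.10 and 2.68 FPKM late with the mutant, and 7.93 and 9.13 FPKM late with WT mRNA.

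Some kept falls went further with the mutant. Kdm2b, a demethylase of histone H3 lysine 36 that recruits a variant Polycomb complex to CpG islands, fell from 182 and 187 FPKM to 9.93 and 12.7 FPKM, and only to 50.4 and 45.3 FPKM with WT mRNA (difference -1.91, adjusted p = 1.6e-05). Mta3, a NuRD subunit, fell from 85.0 and 67.1 FPKM to 6.33 and 7.90 FPKM, against 32.1 and 32.0 FPKM in late WT embryos. In these 2 genes the late mutant values lay below all other values. Such amplified falls numbered 216, damped falls 241, and 2901 kept falls had no called difference.

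The late rise of ribosome and translation genes happened in the mutant arm but fell short for many of them. Cytosolic ribosomal protein genes rose in 68 of 80 with the mutant (median 1.89) and in 76 of 80 with WT mRNA (median 2.78). At 24 h 10 of the 80 were already lower in mutant than in WT embryos, with a list median of -0.44, against 49 of the 13974 genes. By limma the difference was negative for 39 of the 80 and positive for 0, and at an unadjusted p under 0.05 the counts were 48 and 0. Quantile normalization gave 26 negative and 2 positive differences, with a median difference of -0.59 against -0.88 in the fit reported. Rps19, a protein of the small subunit, rose from 7.70 and 7.65 FPKM to 157 and 150 FPKM, against 218 and 232 FPKM in late WT embryos, with no difference called (adjusted p = 0.17).

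Factors that build ribosomes rose less with the mutant as well. Of 85 ribosome biogenesis genes, 53 rose and 15 fell with the mutant (median 0.95), while 82 rose with WT mRNA (median 2.71). By limma the difference was negative for 77 of 85 and positive for 0, and at an unadjusted p under 0.05 for 81 and 0. By class, 47 were damped kept rises, 16 failed rises and 12 turned down. Quantile normalization gave a mutant median of 0.59 with 41 rises, and the median was 0.72 without the second late mutant library and 1.12 without the first.

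Nop56, a core protein of box C/D small nucleolar ribonucleoproteins, rose from 16.0 and 12.7 FPKM to 122 and 106 FPKM with the mutant and to 186 and 188 FPKM with WT mRNA. Its difference of -0.74 (adjusted p = 0.0081) was not called under quantile normalization, at -0.21, nor in a fit of the 8 libraries alone. Mybbp1a, a nucleolar regulator of ribosomal DNA transcription, rose from 1.19 and 1.85 FPKM to 9.72 and 13.4 FPKM, against 115 and 97.6 FPKM in late WT embryos (difference -3.10, adjusted p = 2.4e-06). Both genes rose in both arms, and the late groups did not overlap.

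Fcf1, a nuclease-fold protein of the small-subunit processome that matures 18S rRNA (chr12:84970897-84983303, 8 exons), was the failed rise with the largest difference among the genes named. It was 1.65 and 0.428 FPKM early and 0.873 and 2.87 FPKM late with the mutant, so that the ages overlapped, while WT embryos went from 4.14 and 2.59 FPKM to 77.4 and 69.4 FPKM. The difference was -3.64 ± 0.47 (adjusted p = 2.9e-05). It stayed called in every alternative fit, but without the first late or the first early mutant library a mutant rise was called as well (0.99 and 0.92).

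RNA polymerase subunits followed the same order, with 17 of 29 higher and 5 lower in the mutant arm, 23 higher and 3 lower in the WT arm, and a negative difference for 20 and a positive one for 1. Polr1e, a subunit of RNA polymerase I, rose to 15.3 and 20.4 FPKM with the mutant and to 82.9 and 58.0 FPKM with WT mRNA. Translation initiation factors rose in 15 of 36 and fell in 11 with the mutant, against 28 and 5 with WT mRNA, and 24 differences were negative. Eif3c, a subunit of the eIF3 complex, rose from 2.25 and 2.16 FPKM to 9.96 and 15.9 FPKM, against 104 and 120 FPKM in late WT embryos.

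Eif2s3x, the X-linked gamma subunit of eIF2 that carries the initiator tRNA, turned down. It went from 19.1 and 20.4 FPKM to 5.25 and 8.09 FPKM with the mutant, and from 21.3 and 20.4 FPKM to 65.8 and 59.1 FPKM with WT mRNA. These were changes of -1.46 and 1.54, and their difference was called (adjusted p = 3.2e-06). Among pre-mRNA splicing genes 23 of 59 rose and 24 fell with the mutant, 31 rose and 15 fell with WT mRNA, and the difference was negative for 27. Lsm2, a subunit of the ring that binds the U6 snRNA, went from 19.7 and 21.7 FPKM to 7.82 and 11.3 FPKM, where WT embryos reached 60.6 and 58.0 FPKM.

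Proteasome genes were mixed, with 15 of 38 higher and 14 lower in the mutant arm, 20 and 13 in the WT arm, and 15 negative and 4 positive differences. Quantile normalization gave 11 mutant rises and 15 falls among the 38. In the fit reported, 44.7% of all 13974 genes were higher and 31.3% lower in the mutant arm. Psmd11, a lid subunit, failed to rise: 12.1 and 10.9 FPKM early and 6.84 and 14.3 FPKM late with the mutant, against 77.0 and 74.3 FPKM late with WT mRNA. The changes were -0.19 and 2.80, with an adjusted p of 1.8e-05 for their difference. The late mutant values lay on both sides of the early ones, and without the second late library a fall of -0.67 was called. Hspa4, an Hsp110-type exchange factor for Hsp70, was 5.21 and 4.20 FPKM early and 4.02 and 4.63 FPKM late with the mutant, and 51.1 and 49.0 FPKM late with WT mRNA.

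Activators of the embryonic genome split by gene. Of 26 genes listed as Obox or other activators, 11 rose and 13 fell with the mutant, 15 rose and 7 fell with WT mRNA, and 13 differences were negative and 1 positive. Quantile normalization gave 12 mutant rises and 11 falls. The egg-supplied Obox1 and Obox5, homeobox genes, were kept falls with changes of -4.38 and -4.47. Dppa2, a DNA-binding partner of Dppa4 at early embryonic promoters, failed to rise, with 14.0 and 9.36 FPKM early, 8.82 and 14.7 FPKM late with the mutant and 123 and 115 FPKM late with WT mRNA. Its difference was -3.03 (adjusted p = 4.3e-06), and the early and late mutant values overlapped.

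Dppa4 rose from 1.98 and 2.00 FPKM to 25.2 and 27.0 FPKM with the mutant, and to 124 and 132 FPKM with WT mRNA. Gabpa, an ETS-family transcription factor, rose from 1.11 and 2.08 FPKM to 30.3 and 27.9 FPKM, against 90.2 and 97.7 FPKM in late WT embryos (difference -1.63, adjusted p = 0.00023). Gata1, an erythroid factor also transcribed in the early embryo, reached 3.36 and 8.32 FPKM late with the mutant and 68.5 and 79.5 FPKM with WT mRNA. It was listed at 0 in 1 early mutant library.

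**Figure D3:**
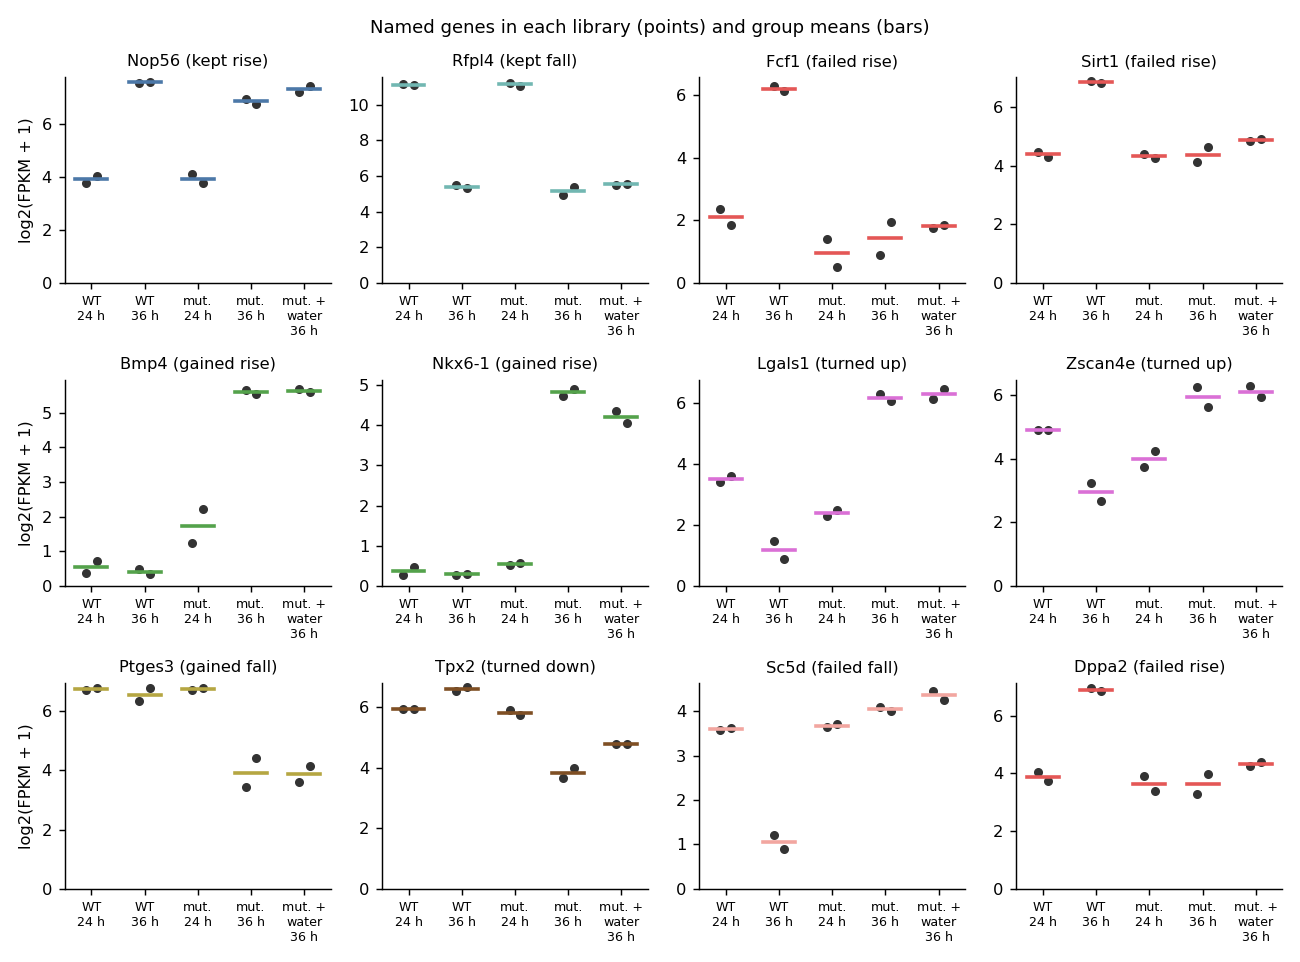
Values of 12 genes on the log2(FPKM + 1) scale in the 2 libraries of each group (points), with group means as bars coloured by class; mut. + water marks mutant embryos injected again with water. Dppa2, Fcf1 and Sirt1 stay near their early level in mutant embryos at 36 h, while Bmp4, Nkx6-1, Lgals1 and Zscan4e are high there and low in WT embryos at 36 h.

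Mitotic genes moved apart between the arms. Of 38, 8 rose and 24 fell with the mutant (median -0.96), while 17 rose and 12 fell with WT mRNA (median 0.28), and the difference was negative for 24 and positive for 2. Tpx2, which activates Aurora A on the spindle (chr2:152847964-152895321, 18 exons), turned down. It fell from 58.4 and 52.1 FPKM to 11.7 and 14.9 FPKM with the mutant and rose from 59.7 and 59.9 FPKM to 92.1 and 99.1 FPKM with WT mRNA (difference -2.65, adjusted p = 6.1e-07). Late mutant values were below and late WT values above all early values.

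Cdc25b, a phosphatase that triggers mitotic entry, went the other way: 24.6 and 17.3 FPKM early and 22.8 and 29.1 FPKM late with the mutant, against 5.20 and 4.26 FPKM late with WT mRNA. Among 42 genes of the G1 to S transition and replication the counts were closer, with 17 higher and 13 lower in the mutant arm and 18 and 8 in the WT arm. The mutant counts were near the shares of all 13974 genes, 44.7% higher and 31.3% lower. Cdkn1c, an inhibitor of cyclin-dependent kinases, was an amplified rise, from 9.39 and 10.6 FPKM to 138 and 152 FPKM against 14.9 and 11.5 FPKM in late WT embryos.

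Gained falls are transcripts that dropped with the mutant and had no called change with WT mRNA. Ptges3, the Hsp90 cochaperone p23 (chr10:128058954-128077272), fell from 104 and 110 FPKM to 9.87 and 20.3 FPKM with the mutant (-2.82 ± 0.25, adjusted p = 1e-07). WT embryos had 105 and 109 FPKM early and 80.4 and 110 FPKM late, so that their ages overlapped. Ndufb2, a subunit of respiratory complex I, fell from 23.0 and 22.7 FPKM to 2.86 and 2.43 FPKM, against 30.5 and 30.0 FPKM in late WT embryos.

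Gtf3a, the factor TFIIIA of 5S rRNA genes, fell from 16.6 and 15.4 FPKM to 1.88 and 3.16 FPKM, and Tsg101, a subunit of the ESCRT-I sorting complex, from 16.4 and 14.7 FPKM to 1.34 and 3.12 FPKM. In late WT embryos Gtf3a stood at 20.8 and 14.2 FPKM and Tsg101 at 16.6 and 13.5 FPKM. Late mutant values of both lay below all 6 other values of the 2 arms. Upf1, the helicase of nonsense-mediated decay, turned down, from 41.5 and 40.3 FPKM to 16.6 and 19.4 FPKM with the mutant while it rose from 29.6 and 28.6 FPKM to 58.5 and 52.4 FPKM with WT mRNA.

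Most of the developmental transcription factor genes followed rose with the mutant and not with WT mRNA. Of 123 developmental transcription factors in the table, 100 were among the 13974 genes, and 46 of these entered through the late pair alone, which fixes their direction in the mutant. In all, 89 of the 100 rose and 4 fell with the mutant, 11 rose and 19 fell with WT mRNA, and the difference was positive for 84 and negative for 2. Of the 39 at or over 1 FPKM in both early mutant libraries, 30 rose and 4 fell, and 32 differences were positive and 1 negative. Among all 10060 genes followed at that level early, 2952 rose and 4367 fell, with 1687 positive and 2081 negative differences. By class 66 were gained rises and 11 turned up.

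Nkx6-1, a homeobox gene of the ventral neural tube and pancreas, rose from 0.444 and 0.489 FPKM to 25.8 and 28.9 FPKM with the mutant and was 0.200 and 0.230 FPKM in late WT embryos. Its difference was 4.36 (adjusted p = 7.2e-07). Irx5, an Iroquois homeobox gene, rose from 0.625 and 1.37 FPKM to 35.9 and 39.1 FPKM, against 0.557 and 0.595 FPKM. Vax2, a homeobox gene of the ventral eye, rose from 0.298 and 0.111 FPKM to 23.4 and 21.9 FPKM and was listed at 0 in 1 late WT library.

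More of the secreted ligands followed rose than fell with the mutant, in part through how they entered. The table holds 68 listed ligands, and 45 were among the 13974 genes, 20 of them through the late pair alone. With the mutant 32 rose and 6 fell, with WT mRNA 5 rose and 13 fell, and the difference was positive for 31 and negative for 1. Of the 21 at or over 1 FPKM in both early mutant libraries 9 rose and 6 fell, with 11 positive and 0 negative differences. Of all 10060 genes so expressed early, 2952 rose and 4367 fell.

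Bmp4, a bone morphogenetic protein (chr14:46383520-46390669, 4 exons), rose from 1.34 and 3.67 FPKM to 50.0 and 45.8 FPKM (3.88 on the log2 scale). In WT embryos it was 0.280 and 0.629 FPKM early and 0.405 and 0.254 FPKM late, and the difference was 4.01 (adjusted p = 2.5e-06). Nrtn, which encodes the neurotrophic ligand neurturin, rose from 0.285 and 0.419 FPKM to 20.4 and 35.5 FPKM and was listed at 0 in 1 late WT library. Hrh3, the histamine H3 receptor gene, reached 39.5 and 39.0 FPKM from 0.583 and 0.316 FPKM, against 0.147 and 0.837 FPKM in late WT embryos.

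Immediate-early genes, whose products answer growth signals and stress, rose in 21 of 24 and fell in 1 with the mutant, against 7 and 5 with WT mRNA, and 17 differences were positive and 1 negative. Junb, an AP-1 subunit, rose from 1.50 and 1.34 FPKM to 24.6 and 23.7 FPKM, against 0.877 and 0.710 FPKM in late WT embryos. Atf3, a stress-induced repressor of the same family of leucine zippers, rose from 2.76 and 5.21 FPKM to 45.1 and 36.8 FPKM, against 0.107 and 0.640 FPKM. The late mutant values of both exceeded all others of the 2 arms.

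Genes of the integrated stress response were more divided, with 17 of 27 higher and 7 lower in the mutant arm. In the WT arm 8 were higher and 9 lower, and 14 differences were positive and 5 negative (11 and 2 under quantile normalization). The shares of all 13974 genes were 44.7% higher and 31.3% lower with the mutant, and 24.6% positive and 17.5% negative differences. Among 29 pluripotency and lineage genes, 24 rose and 4 fell with the mutant and 11 rose and 6 fell with WT mRNA, with 18 positive and 3 negative differences. Klf4, a pluripotency factor, rose from 9.46 and 10.6 FPKM to 95.2 and 97.6 FPKM with the mutant and from 7.26 and 8.82 FPKM to 41.1 and 39.9 FPKM with WT mRNA. Krt8, a simple-epithelium keratin of the trophectoderm, turned up, from 3.30 and 2.53 FPKM to 17.4 and 18.5 FPKM against 0.299 and 0.363 FPKM in late WT embryos.

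**Figure D4:**
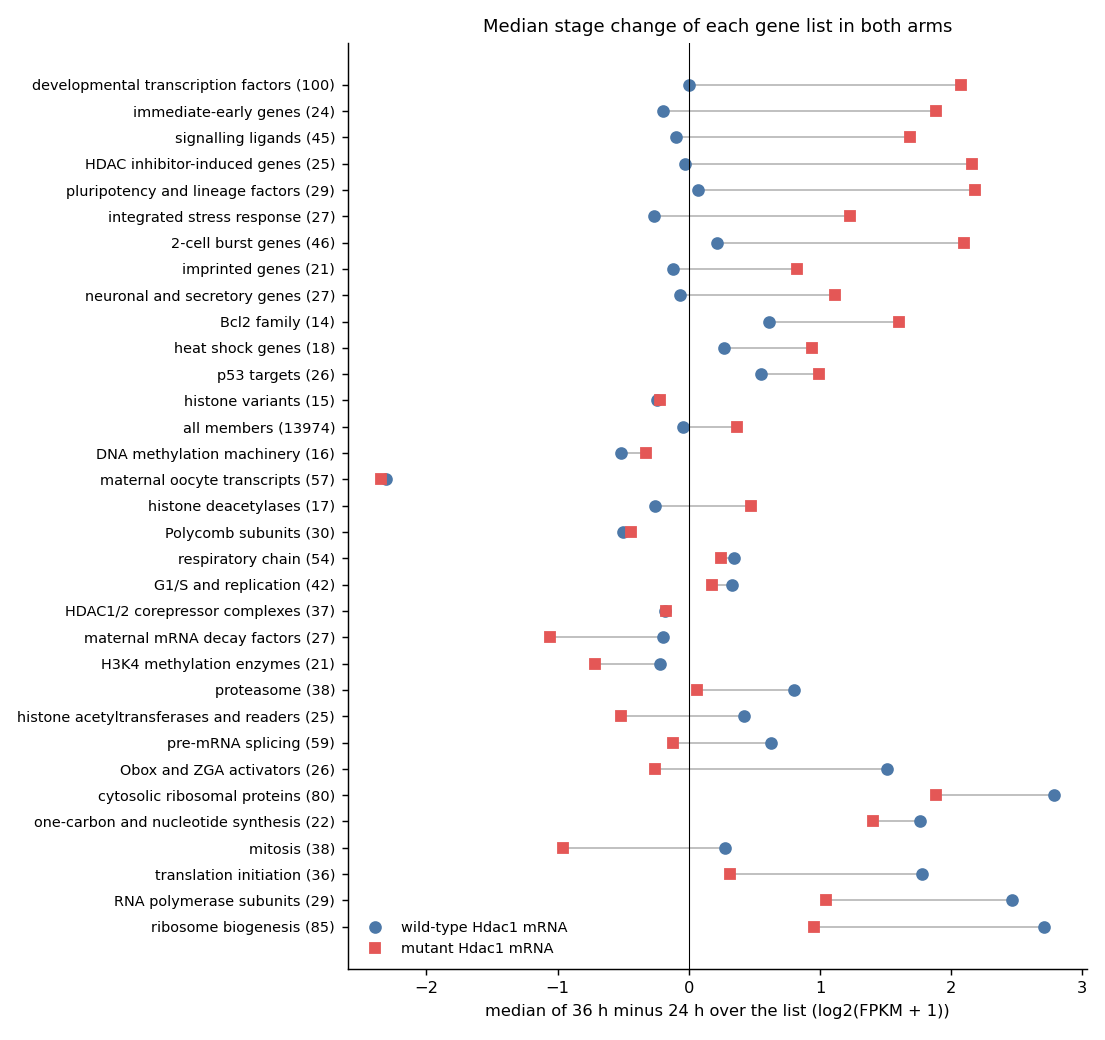
Median late minus early change on the log2(FPKM + 1) scale of each gene list with at least 14 genes among the 13974. Circles are WT embryos and squares mutant embryos, with the number of genes in parentheses and lists ordered by the median difference. Of the lists drawn, ribosome biogenesis stands lowest, at 2.71 in WT and 0.95 in mutant embryos, and maternal oocyte transcripts overlap near -2.3. Developmental transcription factors stand highest of those drawn, at -0.00 in WT and 2.08 in mutant embryos. Shorter lists are not drawn, among them the 5 blood markers, with medians of -0.18 in WT and 3.37 in mutant embryos.

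Transcripts of the early 2-cell burst went on rising with the mutant. Of 46 burst genes, 42 rose and 3 fell with the mutant (median 2.10), whereas 22 rose and 14 fell with WT mRNA (median 0.22), and the difference was positive for 26 and negative for 6. At 24 h the list's median log2 difference of mutant from WT embryos was already -0.59, with 6 genes called lower and 2 higher. Zscan4e, of the Zscan4 cluster of 2-cell genes, rose from 12.4 and 18.2 FPKM to 76.0 and 48.9 FPKM with the mutant. With WT mRNA it fell from 29.2 and 29.0 FPKM to 8.44 and 5.35 FPKM, giving a difference of 3.91 (adjusted p = 3.1e-06). The early mutant values lay below the early WT values, and the late mutant values above the late WT values.

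Zscan4b moved alike, with a difference of 4.09, and members of this cluster share reads with near-identical copies. Trim43a, a tripartite-motif gene of the same stage, showed the other pattern: it rose in both arms, to 19.5 and 20.7 FPKM with the mutant and 81.7 and 99.5 FPKM with WT mRNA. Its difference of -1.33 (adjusted p = 0.0015) was not called with a pseudocount of 0.1. Thus 10 burst genes were gained rises, 10 turned up and 7 were damped kept rises.

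Lgals1, which encodes galectin-1 (chr15:78926725-78930465, 4 exons), had the largest difference among the turned up genes named. It rose from 3.82 and 4.56 FPKM to 76.1 and 65.1 FPKM with the mutant and fell from 9.61 and 11.2 FPKM to 1.77 and 0.839 FPKM with WT mRNA. The difference was 6.12 ± 0.36 (adjusted p = 2.2e-07). Scd2, a stearoyl-CoA desaturase, rose from 2.96 and 2.82 FPKM to 28.0 and 21.6 FPKM and fell with WT mRNA from 6.01 and 7.91 FPKM to 1.52 and 1.38 FPKM.

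Failed falls kept an early level that WT embryos lost. Sc5d, a desaturase of cholesterol synthesis (chr9:42251595-42264256, 6 exons), was 11.5 and 12.1 FPKM early and 16.0 and 15.0 FPKM late with the mutant (adjusted p = 0.11). In WT embryos it fell from 10.9 and 11.2 FPKM to 1.31 and 0.861 FPKM, giving a difference of 2.91 (adjusted p = 3.2e-06). Xlr4c, an X-linked lymphocyte-regulated gene, was 20.3 and 18.8 FPKM late with the mutant and 2.12 and 2.28 FPKM late with WT mRNA. Bik, a BH3-only gene that promotes apoptosis, stood at 20.6 and 12.4 FPKM against 0.832 and 1.26 FPKM.

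Chromatin regulators changed in both directions. Sirt1, an NAD-dependent deacetylase, failed to rise, with 20.3 and 18.0 FPKM early and 16.4 and 24.0 FPKM late with the mutant, against 117 and 113 FPKM late with WT mRNA (difference -2.42, adjusted p = 3.2e-06). Hdac2 was 34.9 and 31.7 FPKM early and 47.3 and 43.8 FPKM late with the mutant, and it fell with WT mRNA from 35.4 and 33.9 FPKM to 19.3 and 16.3 FPKM. The difference for Hdac2 was 1.37 (adjusted p = 8.9e-05), while its mutant rise of 0.44 was not called without the first late (0.39) or the second early (0.37) mutant library, nor under median-ratio scaling (0.26). Over all 13974 genes 44.7% rose and 31.3% fell with the mutant, and the difference was positive for 24.6% and negative for 17.5%. Of 17 deacetylase genes, the injected Hdac1 included, 9 rose and 5 fell with the mutant and 4 rose and 8 fell with WT mRNA. The difference was positive for 5 of these 17 and negative for 2. Median-ratio scaling left 5 mutant rises, and leaving out the first late mutant library left 6. The class of Hdac1, Hdac2 and Hdac3 changed in 6, 3 and 8 of 16 fits.

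Subunits of HDAC1/2 corepressor complexes were split, with 11 of 37 higher and 18 lower in the mutant arm. In the WT arm 16 were higher and 17 lower, and 12 differences were negative and 3 positive. The shares of all 13974 genes were 44.7% higher and 31.3% lower with the mutant, and 17.5% negative and 24.6% positive differences. Mta2, a NuRD subunit, rose to 33.5 and 40.4 FPKM with the mutant and to 225 and 221 FPKM with WT mRNA. Of 25 acetyltransferases and readers, 4 rose and 14 fell with the mutant, 12 rose and 8 fell with WT mRNA, and 14 differences were negative, against 8 under quantile normalization. Kdm5b, a demethylase of histone H3 lysine 4, rose from 1.58 and 3.77 FPKM to 56.6 and 43.7 FPKM with the mutant and from 4.70 and 4.75 FPKM to 116 and 126 FPKM with WT mRNA, with no difference called (-0.56 ± 0.35, adjusted p = 0.24).

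Epop, which joins Elongin to Polycomb complex PRC2, was a gained rise from 2.10 and 2.53 FPKM to 70.6 and 94.3 FPKM, against 1.97 and 1.10 FPKM in late WT embryos. Of 30 Polycomb subunits 9 rose and 16 fell with the mutant and 6 rose and 17 fell with WT mRNA. Over all 13974 genes 44.7% rose and 31.3% fell with the mutant. Differences of the 30 were 6 positive and 8 negative, against 24.6% and 17.5% of all 13974 genes. Quantile normalization turned both Polycomb balances, to 13 mutant rises and 12 falls and to 8 positive and 3 negative differences. Mitochondrially encoded mRNAs rose in 12 of 13 in each arm, and 0 of 13 differences were called by limma, with 0 at an unadjusted p under 0.05.

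The classes were then read in other embryos at 36 h. FK228 against DMSO and mutant against WT Hdac2 mRNA share no library with the Hdac1 arms, although all libraries entered the same fit and so shared its gene filter and its estimate of spread. With FK228, 87.3% of gained rises were higher, against 31.3% of the 13974 genes and 31.0% of all tested, and 97.0% of failed rises were lower, against 29.6% and 26.3%. With mutant Hdac2, 93.1% of gained rises were higher, against 31.4% and 30.8%, and 94.9% of failed rises were lower, against 25.3% and 22.2%. The class shares in these embryos were chosen after the classes had been seen.

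The smaller classes gave similar shares. With FK228, 90.4% of gained falls and 99.6% of turned down genes were lower, and 76.1% of failed falls and 92.9% of turned up genes were higher. With mutant Hdac2 the shares were 90.1%, 98.4%, 83.0% and 97.6%. Genes with no call in either Hdac1 arm were higher in 16.2% and lower in 18.0% with FK228. Kept rises were lower in 56.3% and higher in 16.2% with FK228, and lower in 45.5% and higher in 20.8% with mutant Hdac2. Among them Cd63, a tetraspanin gene, rose from 24 h to 36 h by 5.23 with mutant and 5.22 with WT Hdac1 mRNA. At 36 h it was lower by 2.99 with FK228 than with DMSO.

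**Figure D5:**
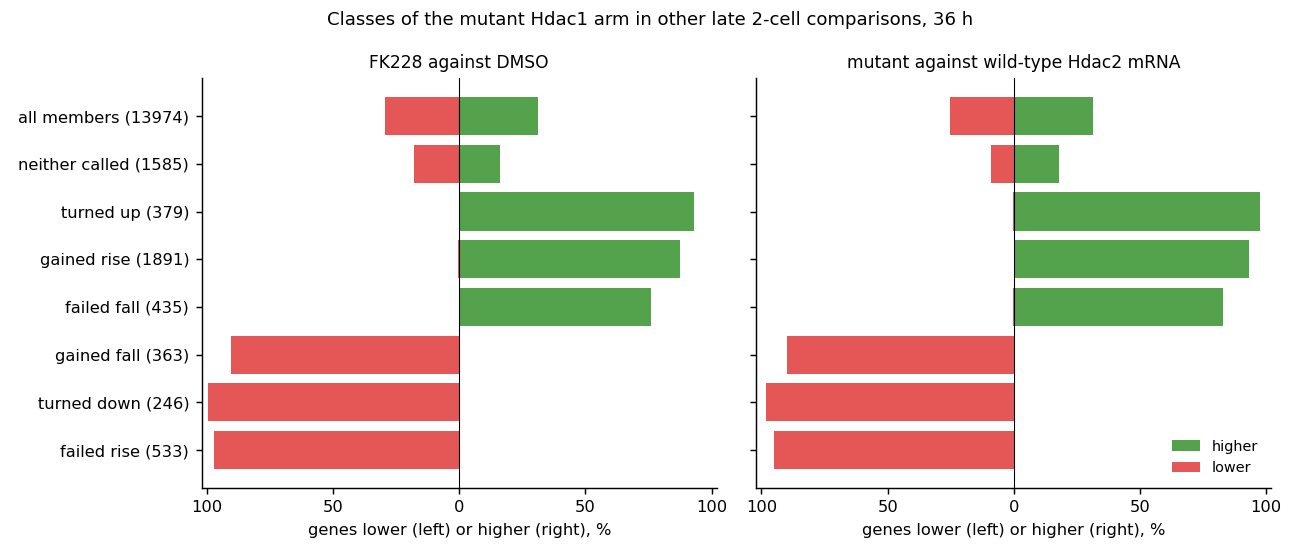
Share of each class (rows, with the number of genes) that was higher (right) or lower (left) at 36 h with FK228 against DMSO and with mutant against WT Hdac2 mRNA. Gained rises, failed falls and turned up genes lie to the right and failed rises, gained falls and turned down genes to the left, while of all 13974 genes 31.3% are higher and 29.6% lower with FK228.

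A second late group, injected again with water, gave side-by-side levels. Its median was 6.22 and 5.19 FPKM for gained rises and 8.999 and 10.02 FPKM for failed rises. Lgals1 was 69.0 and 87.1 FPKM there, Nkx6-1 19.5 and 15.7 FPKM, and Fcf1 2.37 and 2.64 FPKM. For failed rises both medians lay above those of the once-injected late mutant libraries and below those of the late WT libraries.

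Promoter letters differed between the classes. RefSeq promoters of GRCm38.p6, 250 bases before to 50 after a start, were found for 10235 of the 13974 genes, and the hexamer CCGGAA, the core that ETS-family factors recognize, was counted on both strands. It was in 15.2% of all 27025 promoters and 27.3% of those of the genes followed. The share was 40.9% for failed rises, 41.1% for turned down genes and 39.0% for gained falls, and 14.8% for gained rises, 17.2% for turned up genes and 24.0% for failed falls. Kept rises stood at 32.3% and kept falls at 26.5%.

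A ratio of observed to expected CpG of at least 0.6 was found in 36.5% of all promoters and in 70.8% of those of the genes followed. The share was 86.5% for failed rises, 88.4% for turned down genes and 84.0% for gained falls, against 57.1% for gained rises and 62.4% for turned up genes. Failed falls, at 70.7%, stood at the share of all genes followed. CCGGAA itself holds a CpG, and its part in that difference was not tested. The hexamer TATAAA, the core of the TATA box, was in 14.2% of all promoters, 7.28% of those followed, 10.04% of turned up and 4.74% of turned down genes. These counts are descriptions, and a match shows neither binding nor a cause.

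Promoters of 5 genes are shown as examples, chosen because they hold the letters in question. Lower case runs 5′ to 3′ on the gene's strand. CCGGAA or its reverse complement is in capitals for Bbs2 (failed rise, chr8:94098460-94098759, minus strand), Tsg101 (gained fall, chr7:46919920-46920219, minus) and Upf1 (turned down, chr8:70353230-70353529, minus). Bbs2, a subunit of the cilium-sorting BBSome, was 1.33 and 0.721 FPKM early and 0.478 and 3.63 FPKM late with the mutant, and 42.2 and 44.2 FPKM late with WT mRNA. Without the first late mutant library a mutant rise of 1.21 was called. Every CG is in capitals for Nkx6-1 (gained rise, chr5:101664662-101664961, minus), and TATAAA on either strand for Krt8 (turned up, chr15:102004293-102004592, minus).
Bbs2: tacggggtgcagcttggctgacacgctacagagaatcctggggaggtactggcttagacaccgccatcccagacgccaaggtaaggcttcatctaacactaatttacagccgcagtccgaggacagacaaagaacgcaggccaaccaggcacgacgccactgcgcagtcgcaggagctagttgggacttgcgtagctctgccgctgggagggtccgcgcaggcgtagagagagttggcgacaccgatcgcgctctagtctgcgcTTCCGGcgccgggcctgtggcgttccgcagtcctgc
Tsg101: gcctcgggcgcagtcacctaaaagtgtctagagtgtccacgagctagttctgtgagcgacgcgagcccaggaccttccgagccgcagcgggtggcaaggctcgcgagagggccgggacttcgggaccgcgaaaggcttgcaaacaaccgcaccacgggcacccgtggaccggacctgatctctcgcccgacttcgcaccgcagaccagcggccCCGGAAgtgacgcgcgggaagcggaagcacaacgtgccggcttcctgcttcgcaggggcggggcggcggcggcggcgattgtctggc
Upf1: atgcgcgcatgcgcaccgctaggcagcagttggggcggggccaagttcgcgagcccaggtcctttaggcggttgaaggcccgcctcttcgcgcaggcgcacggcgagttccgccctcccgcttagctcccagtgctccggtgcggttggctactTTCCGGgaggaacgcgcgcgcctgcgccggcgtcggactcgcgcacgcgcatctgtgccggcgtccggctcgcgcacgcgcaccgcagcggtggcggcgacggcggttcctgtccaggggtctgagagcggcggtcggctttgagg
Nkx6-1: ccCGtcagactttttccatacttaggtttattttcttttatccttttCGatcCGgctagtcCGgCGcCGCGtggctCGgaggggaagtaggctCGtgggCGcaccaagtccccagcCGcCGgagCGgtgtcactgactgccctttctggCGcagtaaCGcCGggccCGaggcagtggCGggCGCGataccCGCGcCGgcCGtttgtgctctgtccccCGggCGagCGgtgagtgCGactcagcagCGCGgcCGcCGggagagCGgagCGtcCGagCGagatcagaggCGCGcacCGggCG
Krt8: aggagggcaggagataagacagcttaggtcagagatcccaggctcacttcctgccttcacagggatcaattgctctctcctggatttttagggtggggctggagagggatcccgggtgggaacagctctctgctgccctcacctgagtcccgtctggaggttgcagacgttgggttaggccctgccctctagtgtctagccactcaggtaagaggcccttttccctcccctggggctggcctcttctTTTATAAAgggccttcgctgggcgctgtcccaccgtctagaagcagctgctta

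The Nkx6-1 window holds 40 CG pairs and the Krt8 window 6. The observed to expected CpG ratio of Nkx6-1 is 1.18, high for its class. Gained rises had a median ratio of 0.656, below the 0.759 of all genes followed. In Krt8 the 2 matches, 1 on each strand, overlap. The other windows hold 1 match each.

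Markers of other cell types were followed because whole embryos can carry attached cells. Of 11 blood markers in the table, 5 were among the 13974 genes. All 11 together summed to 11.1 and 13.4 FPKM early and 122 and 107 FPKM late with the mutant, and to 13.9 and 26.0 FPKM early and 5.42 and 4.29 FPKM late with WT mRNA. The sum late was carried by Hba-a1, Hba-a2 and Cd74, and 4 blood markers were at 0 in both late mutant libraries. Cumulus and granulosa markers summed to 6.19 and 9.92 FPKM early and 15.9 and 25.0 FPKM late with the mutant. With WT mRNA they summed to 19.2 and 28.1 FPKM early, above the early mutant libraries, and to 42.8 and 51.7 FPKM late, the late sum mostly from Amhr2. Sperm markers summed to 5.07 and 5.93 FPKM early and to 1.46 and 6.22 FPKM late with the mutant. The part of other cells in the results was not tested.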

How the data were processed

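PolyA RNA of whole mouse embryos was sequenced, with 2 libraries per group. The authors deposited FPKM values per gene. Trimmomatic, HISAT2, featureCounts, Cufflinks and DESeq2 and the build GRCm38 are named for the series per the submitters' processing notes, with no role given; DESeq2 was not used here. Whether reads were counted by strand is not given in the sources used here, so overlapping and near-identical genes are uncertain. Absolute depth is unknown, so no counting intervals could be given.

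The values were put on the log2 scale after adding 1 to each deposited FPKM, so changes of genes near 0 come out too small. The 17336 genes with at least 1 FPKM in at least 2 of the 22 mouse libraries were fitted together in limma 3.58.1 (R 4.3.3) with mean-variance trend, 1 coefficient per group and 11 residual degrees of freedom. Tests were two-sided, with Benjamini-Hochberg adjustment over all 17336 genes and calls at an adjusted p under 0.05. Errors are standard errors of limma's log2 difference. The fit was tested on simulated data. Of 100 genes raised by 1 log2 unit in the late mutant libraries, the mutant change was called for 54 and the difference for 18. Of 100 genes raised by 2 log2 units the calls were 88 and 69. Only these genes of the 17336 were changed, far fewer than were called in the real data. The adjustment was therefore stricter in the simulation, and its shares do not give those missed in the real fit. Even so, a difference that was not called does not show equal change. No column of per-sample values was left unused.

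Genes named in the text were taken by size of change or of difference within each class and list, among symbols whose higher group averaged 5 FPKM or more and whose groups did not overlap, together with the deacetylases and example genes of each list. The genes followed and the gene lists were chosen with earlier results of these data known. Gene coordinates are those of GRCm38 with the annotation's exon counts, and promoters are RefSeq's of GRCm38.p6. Alternatives tried were a pseudocount of 0.1, a minimum of 5 FPKM, no filter, testing the genes followed alone, median-ratio and quantile scaling, fitting the compared groups alone, a replicate block, a 2-fold minimum, the twice-injected late group and leaving out each of the 8 libraries. List counts were recomputed under the 2 scalings, the 5 FPKM minimum and without each late mutant library.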

Additional observations from a re-analysis of the deposited data

Results flagged for a closer look

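The direct test of the difference between the stage changes of the mutant and WT arms gave 3437 genes with a more positive and 2439 with a more negative change in the mutant arm. These include 533 failed rises, 435 failed falls, 1891 gained rises, 363 gained falls, 379 turned up and 246 turned down genes, each listed because its 2 stage changes differed by that test.

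The largest difference of a named gene in each class was as follows. Among failed rises it was -3.64 for Fcf1, a ribosome assembly factor. Among failed falls it was 3.94 for Cd52, a gene of a lymphocyte surface antigen, which was 3.42 and 2.84 FPKM early and 4.24 and 4.06 FPKM late with the mutant and was listed at 0 in 1 late WT library. Early WT libraries had 11.5 and 24.6 FPKM of Cd52, above the early mutant ones and far from each other. Cd52 is also on the list of blood markers. Among gained rises it was 4.92 for Slc40a1, the iron exporter ferroportin, whose late mutant libraries were far apart at 34.6 and 11.9 FPKM and whose class changed in 4 of 16 alternative fits.

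Ndufb2, of respiratory complex I, had the largest difference among gained falls, at -3.16. Lgals1, for galectin-1, had the largest among turned up genes, at 6.12. Among turned down genes it was -3.75 for Rpl37a, a ribosomal protein gene with 4.86 and 0.882 FPKM late with the mutant, whose class changed in 8 of 16 alternative fits. Groups of 2 libraries allow no test for a single outlying library.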

How the results depend on the processing

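Counts of mutant changes, of differences and of classes were recomputed, counts of WT changes were not, and precision is limited by 2 libraries per group. The twice-injected late group in place of the once-injected one gave 6743 mutant rises and 3923 falls and was used for these alone. Leaving out each of the 4 mutant libraries gave 5684 to 5959 mutant rises and 3815 to 4130 falls. Leaving out each of the 8 libraries of both arms gave 2871 to 3305 positive and 2049 to 2445 negative differences. By class the ranges were 3101 to 3341 kept rises, 3039 to 3222 kept falls, 450 to 653 failed rises, 325 to 502 failed falls, 1606 to 1881 gained rises, 287 to 427 gained falls, 272 to 376 turned up and 178 to 279 turned down. Quantile normalization gave 1258 gained rises, and a fit of the compared groups alone gave 234 turned up and 140 turned down. A 2-fold minimum left 2207 kept falls, 119 turned up and 30 turned down. The cause was not tested. Mutant rises made up 48.9% of mutant calls under quantile normalization and 58.9% otherwise in the fit reported.

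With the replicate number as a block there were 6278 rises and 4386 falls in the mutant arm, 3468 positive and 2470 negative differences, and 1917 gained and 527 failed rises. Deviations of same-numbered libraries correlated at 0.01 to 0.14 across genes, and the labels tie the numbers to no shared source.

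Of 277 named genes, 185 kept their class in all 16 fits. Quantile normalization turned the mutant change of Hdac3 to -0.026 and the difference of Sesn2 to 0.077.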

Other observations

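Of 36 listed imprinted genes 21 were followed, of which 10 rose and 6 fell with the mutant and 3 rose and 8 fell with WT mRNA, with 9 positive and 2 negative differences. Of these, 4 entered through the late mutant pair alone, and of the 14 at or over 1 FPKM in both early mutant libraries 5 rose and 6 fell. The mutant counts of the 21 were near the shares of all 13974 genes, 44.7% higher and 31.3% lower. Nnat, an imprinted gene named for its expression in newborn brain, rose from 0.997 and 1.41 FPKM to 13.9 and 18.9 FPKM with the mutant and was 0.568 and 0.0582 FPKM late with WT mRNA. Of 26 p53 target genes, 16 rose and 5 fell with the mutant and 11 rose and 7 fell with WT mRNA. Their differences were 9 positive and 6 negative, against 24.6% and 17.5% of all 13974 genes. Cdkn1a, an inhibitor of cyclin-dependent kinases, rose from 7.85 and 10.2 FPKM to 59.4 and 58.1 FPKM with the mutant, against 18.96 and 17.0 FPKM late with WT mRNA.

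Of 18 heat shock genes, 10 rose and 7 fell with the mutant and 8 rose and 5 fell with WT mRNA. Quantile normalization left 4 mutant falls among them. Over all 13974 genes 44.7% rose and 31.3% fell with the mutant in the fit reported. Hspa1a, an inducible Hsp70, rose from 7.16 and 7.83 FPKM to 49.1 and 44.9 FPKM with the mutant, against 18.6 and 12.1 FPKM late with WT mRNA. Gained rises spanned a median of 14.0 kb and turned down genes 29.8 kb, against 20.0 kb over the genes followed. Neither was particular to its class, since kept rises spanned 14.4 kb, turned up genes 14.5 kb and kept falls 34.7 kb.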
